A study of Mus musculus with 4 samples.

Results

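Cohesin is the ring-shaped protein complex that holds sister chromatids together, and 10 genes of cohesin and its regulators were followed here through mouse oocyte maturation with and without tubastatin A (TubA). They were taken by symbol from the 21957 genes of the expression table, after Ensembl identifiers had been matched to symbols. The 10 genes were the subunits *Smc1a*, *Smc1b*, *Smc3*, *Rad21*, *Rec8* and *Stag3*, the shugoshins *Sgo1* and *Sgo2a*, the separase gene *Espl1* and the release factor *Wapl*. Each had 1 entry in the table, and 9 of them reached at least 1 FPKM in at least 1 library.

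Tubastatin A was designed as an inhibitor of the deacetylase HDAC6. Oocytes came from female Hybrid B6D2F1 (C57BL/6 x DBA) mice aged 6 to 8 weeks. GV oocytes, which are arrested with an intact germinal vesicle, were taken at 0 h of culture without drug. MII oocytes were cultured for 12 h in M16 medium without TubA and, by the methods of the study, were collected when a polar body had been extruded, although their sample title calls them an embryo. TubA-10 and TubA-20 oocytes were cultured for 12 h with 10 or 20 μM TubA by their titles, while the treatment field of the same samples gives 20 and 11 μM. The titles are followed here. All groups share the strain, the sex and, by the methods, gonadotropin priming of the donors, and each library was, by the methods, a pool of 100 oocytes.

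There was 1 library for each condition and hence no measure of replicate error, and no test or p-value is given. The methods give the polar body criterion for MII oocytes alone and name DMSO as the solvent of TubA without stating that controls received it, so drug, solvent and stage cannot be told apart between TubA and MII oocytes. Values are FPKM, that is, fragments relative to the length of the transcript and to the total mapped in that library, so levels of different genes can be compared per length. Differences are log2 ratios of FPKM + 1, and a gene is called higher or lower when it passed 2-fold on that scale. The RNA was selected with oligo(dT), so the amount of an mRNA and the share of it with a poly(A) tail cannot be told apart. In a pool, fewer oocytes holding an mRNA and less of it per oocyte cannot be told apart, and as each library was scaled to its own total, a change of total RNA per oocyte cannot be seen. The files give no counts, so the number of fragments behind each value is not known exactly. The lowest FPKM values did not share a clear enough step to recover it. The paper gives total reads by library, more for MII and TubA-10 than for GV and TubA-20, but not how many were mapped. All 11 oocyte markers were above 1 FPKM in every library, with a summed level of 10140 to 14014 FPKM. The 12 cumulus and granulosa markers summed to between 8.55 and 15.7 FPKM, and 1 to 3 of them were above 1 FPKM in a library. *Cyp19a1* was above 1 FPKM in all 4, at 6.14 to 10.3 FPKM, *Inha* in GV alone at 7.502 FPKM, and *Tnfaip6* and *Ptx3* in TubA-20 alone at 1.57 and 1.19 FPKM. *Foxl2* was at 0 throughout, and blood markers summed to at most 0.0779 FPKM. The part of cumulus or granulosa RNA in the results was not tested.

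The cohesin ring is built from an SMC1 and an SMC3 protein closed by a kleisin and bound by a STAG protein. Germ cells use the meiotic versions SMC1B, REC8, RAD21L and STAG3 beside or in place of SMC1A, RAD21 and the somatic STAG proteins. In oocytes this cohesion is laid down before birth and must last until the meiotic divisions. Separase then cuts REC8 on chromosome arms at the first anaphase, while shugoshin with the phosphatase PP2A shields REC8 at centromeres until the second division.

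Among the 10 genes, *Smc3* had the highest level in every library and *Rec8* was listed at 0 in every library. From GV to MII, *Smc3* and *Espl1* rose past 2-fold, as did 6.14% of all genes tested, and 8 of the 10 genes had a higher value in MII. With 10 μM TubA, 8 genes were below MII, none past 2-fold. With 20 μM TubA, *Stag3* alone of the 10 differed more than 2-fold from MII, being higher. Of all genes tested, 0.661% were higher by this measure. *Stag3* is not read against this share, as it reached the minimum of 1 FPKM for testing in both TubA libraries only. The other 8 genes above 0 lay between −0.28 and 0.41 log2 of MII. The plot of levels by gene and library shows these values on 1 scale.

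**Figure D1:**
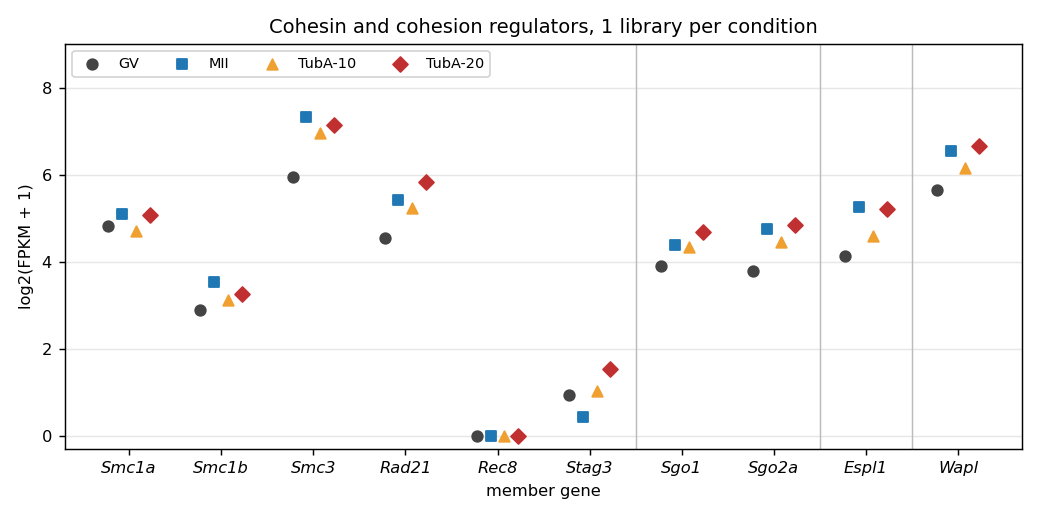
Level of the 10 genes as log2(FPKM + 1) on the vertical axis, with 1 point for each library (GV, MII, TubA-10 and TubA-20) and vertical lines between subunits, shugoshins, separase and the release factor. *Smc3* lies highest at 60.9 to 160.1 FPKM, *Rec8* lies at 0 and *Stag3* at 0.340 to 1.89 FPKM.

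The order of the levels was nearly the same in the 4 libraries. *Smc3* was highest, followed by *Wapl*, and *Smc1b*, *Stag3* and *Rec8* were the 3 lowest, in that order. *Sgo1* and *Sgo2a* were next to each other in every library. *Smc1a*, *Rad21* and *Espl1* took the places between, in changing order. With no replicates it could not be judged which neighbours differ beyond their spread.

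The 3′ ends of the transcripts bear on what oligo(dT) selection measures, because oocytes lengthen the poly(A) tail of some stored mRNAs through a cytoplasmic polyadenylation element (CPE) near the poly(A) signal. In the principal transcript of the GENCODE annotation, the 3′ UTR was 34 bases long for *Rec8* and 142 for *Espl1*, and 1100 for *Sgo2a*, 1814 for *Sgo1* and 2293 for *Wapl*. A poly(A) signal, AATAAA or ATTAAA on the transcript strand, lay in the last 100 bases for 7 of the 9 genes with a 3′ UTR of that length, and not for *Smc1b* and *Smc3*. It did for 81.5% of 10137 genes tested. A CPE, searched as TTTTAT or TTTTAAT, lay in the last 100 bases for *Sgo2a* alone, and for 20.2% of the 10137 genes. The sites of both shugoshin genes and of the separase gene are shown, 5′ to 3′ in the sense of the mRNA, with the CPE or the poly(A) signal in capitals, because these genes act on the cut of REC8.
Sgo2a CPE: acttatgtatcaTTTTATcattaattctct
Sgo2a signal: tttatttattttttaaatacaaATTAAAaa
Sgo1 signal: tgtggttgtataatatgatataAATAAAcc
Espl1 signal: atattttctttaatgtgaccttAATAAAga
In *Sgo2a* the CPE ends 33 bases before the poly(A) signal, and the signal ends 18 bases before the annotated 3′ end. A match is a description of these letters only, and poly(A) tails were not measured.

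*Smc3* (chromosome 19, 53600398 to 53645833, GRCm38, the assembly also called mm10) encodes the SMC subunit common to mitotic and meiotic rings. Its level was 60.9 FPKM in GV and 160.1 in MII, with 122 after 10 μM and 140.1 after 20 μM TubA. GV was lowest and MII highest, with TubA-10 at 0.765 times and TubA-20 at 0.875 times the MII level. The log2 difference from GV was 1.38 for MII, a place above 99.3% of all genes tested, 0.997 for TubA-10 and 1.19 for TubA-20. The TubA-10 value was just short of 2-fold and passed it with 5 of 7 other scalings, pseudocounts or entry choices, at 1.01 to 1.26. The TubA-20 value was just short of 2-fold when the median difference of all genes was set to 0.

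*Smc1a* (chromosome X, 152016428 to 152062694) encodes the SMC1 protein of all dividing cells. It was at 27.1 FPKM in GV, 33.1 in MII and, for TubA-10 and TubA-20, 24.9 and 32.6, the narrowest range of the 9 genes above 0, 1.33-fold from lowest to highest. TubA-10 was lowest, with a log2 difference of −0.40 from MII and −0.11 from GV, the latter positive (0.14) with libraries scaled to equal *Gapdh*. *Smc1b* (chromosome 15, 85064689 to 85131964) encodes the germ cell partner of SMC3. It was at 6.38 FPKM in GV against 10.6 in MII, 7.73 at the lower and 8.55 at the higher TubA dose, so MII was highest. Its log2 difference was 0.65 from GV to MII and −0.28 from MII to TubA-20.

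The share of *Smc1b* in the summed FPKM of both SMC1 genes was 19.1% in GV and 24.2% in MII, with 23.7% after 10 μM and 20.8% after 20 μM TubA. Such a share within a library does not depend on how libraries are scaled. *Smc1a* was therefore at least 3.13 times as high as *Smc1b* per length in every library. *Smc3* was at 1.82 times the sum of both in GV and at 3.40 to 3.75 times in the cultured libraries.

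*Rad21* (chromosome 15, 51962240 to 51991747) encodes the kleisin of mitotic cohesin. It was at 22.4 FPKM in GV and 41.5 in MII, with 36.7 after 10 μM and 55.6 after 20 μM TubA. TubA-20 was highest and GV lowest. The log2 difference from GV was 0.86 for MII and 0.69 for TubA-10, and it was 1.27 for TubA-20, where it passed 2-fold. From MII to TubA-20 it was 0.41, between 0.26 and 0.42 under the alternatives.

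*Rec8* (chromosome 14, 55618037 to 55625395), the kleisin cut by separase in meiosis, was listed at 0 FPKM in each of the 4 libraries. It was among the 5087 of 21957 genes listed at 0 throughout. Of 151 ribosomal protein, proteasome, *Polr2*, *Cct*, *Ndufs* and *Sf3b* genes, a set chosen after the values were seen, 2 were also at 0 throughout. These were *Psmb9* and *Rpl3l*, which encode an immunoproteasome and a muscle-restricted ribosomal subunit. How often a gene such as *Rec8* is wrongly listed at 0 cannot be read from this set. None of the 2135 stretches of 50 bases in the principal *Rec8* transcript occurred in the annotated transcripts of another gene, and no annotated exon of another gene overlapped its exons. A listed 0 may be a failed estimate, and the reason for it was not tested. No fold is given for *Rec8*, and no gene with a similar pattern could be sought for it. The germ cell kleisin *Rad21l* was low, at 1.75 FPKM in GV, 2.35 in MII and, for TubA-10 and TubA-20, 1.86 and 2.34. This was 4.05% to 7.25% of the summed kleisin FPKM. The sum counts *Rec8* as 0, so the share is too high if that 0 is a failed estimate.

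*Stag3* (chromosome 5, 138280240 to 138312393), which encodes the STAG subunit of meiotic cohesin, was at 0.927 FPKM in GV against 0.340 in MII, 1.05 at the lower and 1.89 at the higher TubA dose. MII was lowest and TubA-20 highest, 5.58 times the MII value. As only the TubA libraries took *Stag3* past the 1 FPKM minimum, its difference from MII is given as a description and not read against the share over all genes. The log2 difference from MII was 1.11 in TubA-20, past 2-fold under all 7 alternatives (the entry choice could not move it), and 0.61 in TubA-10. From GV to MII it was −0.52, and a pseudocount of 0.01 FPKM in place of 1 moved it to −1.42. At such levels few fragments may lie behind a value. The somatic partners were higher throughout. *Stag2* was at 13.1, 43.2, 31.1 and 38.5 FPKM in the same order of libraries, and *Stag1* at 5.38, 11.4, 9.79 and 14.98 FPKM. *Stag2* rose from GV to MII by 1.65 log2, the largest difference among the 33 cohesion genes examined in that comparison. *Stag3* made up 4.78% of the summed *Stag* FPKM in GV, but 0.619% in MII and 3.42% in TubA-20, with TubA-10 between those.

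**Figure D2:**
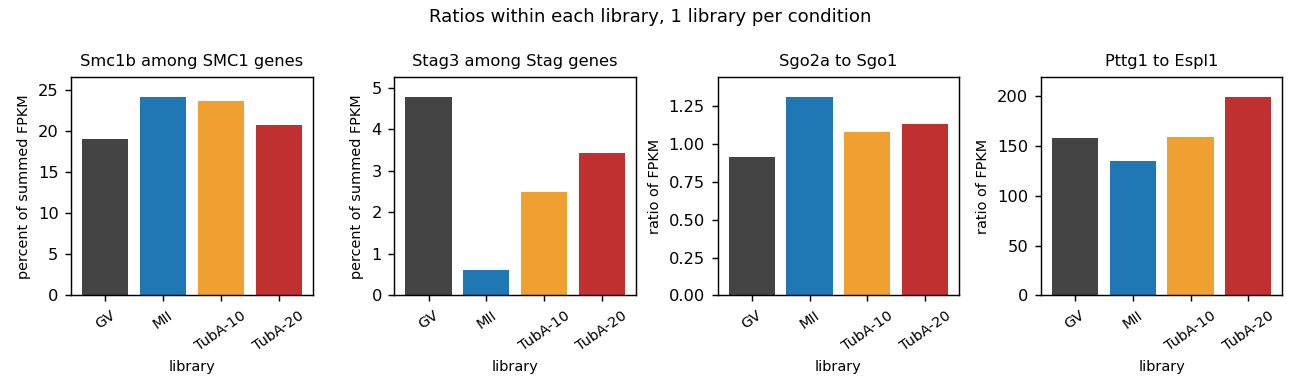
Ratios within each of the 4 libraries, which no scaling of a library moves: percent of summed FPKM for *Smc1b* among the 2 SMC1 genes and for *Stag3* among the 3 *Stag* genes, and FPKM ratios of *Sgo2a* to *Sgo1* and of *Pttg1* to *Espl1*. Bars start at 0 and each is 1 library. *Stag3* is at 0.619% in MII and 4.78% in GV, and *Pttg1* to *Espl1* is lowest in MII at 135 and highest in TubA-20 at 199.

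*Sgo1* (chromosome 17, 53674786 to 53689333) encodes the shugoshin best known from mitosis. It was at 13.9 FPKM in GV and 19.8 in MII, with 19.3 after 10 μM and 24.5 after 20 μM TubA. The log2 difference from MII was 0.30 in TubA-20, and −0.03 in TubA-10, which turned just positive with equal *Gapdh*. *Sgo2a* (chromosome 1, 57995971 to 58025899) encodes the shugoshin that shields centromeric REC8 in mouse oocytes. It was at 12.7 FPKM in GV, 25.8 in MII and, for TubA-10 and TubA-20, 20.8 and 27.7. GV was lowest, and MII and TubA-20 differed by 0.10 log2, a sign that turned under 3 of the 4 scalings. The log2 difference from GV was 0.97 in MII, above 92.7% of all genes tested, and 1.06 in TubA-20, past 2-fold. The MII value passed 2-fold with either smaller pseudocount, equal FPKM sums, equal upper quartiles or equal *Gapdh*, at 1.01 to 1.18. The TubA-20 value did not pass it with the median difference set to 0 (0.875).

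The ratio of *Sgo2a* to *Sgo1* was 0.914 in GV, 1.31 in MII and, for TubA-10 and TubA-20, 1.08 and 1.13. Exons of *Sgo2a* share 2455 bases, 35.04% of their length, with exons of *Kctd18* on the opposite strand. *Kctd18* was at 3.04, 6.80, 5.38 and 9.44 FPKM in the order of libraries used above. The quantification used a strand-specific option, which keeps the strands apart as far as the library does. *Sgo2b*, a copy of *Sgo2a* that shares 2.68% of its 50-base stretches, was at 4.08 FPKM in GV against 7.48 in MII, 6.84 at the lower and 9.33 at the higher TubA dose. Within such a stretch the sequence alone does not tell the copies apart, although the paired reads of the study were longer than 50 bases. No other gene of the 10 shared more than 1.56% of its stretches with any transcript of another gene.

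*Espl1* (chromosome 15, 102296266 to 102324357) encodes separase, the protease that opens the ring. It was at 16.5 FPKM in GV and 37.1 in MII, with 22.9 after 10 μM and 35.8 after 20 μM TubA. MII and TubA-20 were close to each other, and TubA-10 lay nearer to GV. The rise from GV to MII was 1.12 log2, just short of 2-fold with the median difference set to 0. TubA-10 stood at −0.68 against MII, a value below that of all but 0.991% of the genes tested, and TubA-20 at −0.05. Against GV, *Espl1* rose by 1.07 in TubA-20 and stood at 0.45 in TubA-10. Its inhibitor securin, the product of *Pttg1*, was at the mRNA level at 2606 FPKM in GV, 5029 in MII and, for TubA-10 and TubA-20, 3645 and 7145. Cyclin B1, which with CDK1 also holds separase inactive, is the product of *Ccnb1*. That gene was at 394, 749, 626 and 927 FPKM in the same order. The ratio of *Pttg1* to *Espl1* was 158 in GV and 135 in MII, with 159 after 10 μM and 199 after 20 μM TubA.

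*Wapl* (chromosome 14, 34673928 to 34747983) encodes the factor that opens the ring without cutting it. It was at 48.8 FPKM in GV against 92.7 in MII, 70.1 at the lower and 100.4 at the higher TubA dose. GV was lowest and TubA-10 lay between GV and MII. The log2 difference from GV was 0.91 for MII and 0.51 for TubA-10, and it was 1.02 for TubA-20, where it passed 2-fold, but not with the median difference set to 0 (0.84) or equal upper quartiles (0.97). From MII to TubA-20 it was 0.11, and it turned to −0.04 with equal *Gapdh*. Sororin, the product of *Cdca5*, protects rings from WAPL, and its mRNA went the other way. It fell from 163 FPKM in GV to 69.7 in MII and was at 82.3 in TubA-10 and 86.6 in TubA-20. *Cdca5* was at 3.34 times *Wapl* in GV, and at 0.752 to 1.17 times in the cultured libraries.

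Across the maturation comparison, MII against GV, 2 of the 10 genes rose past 2-fold and 0 fell, while 6.14% of the 10898 genes tested rose and 16.8% fell. The median log2 difference was 0.75 over the 10 genes and 0.04 over all genes tested, with 8 genes above 0, *Stag3* below and *Rec8* at 0. The medians over the 10 genes count *Rec8* as 0, although it was not among the genes tested. Without *Rec8* the median here was 0.86. Over the genes tested, 51.5% were above 0. The median of the genes with at least 1 FPKM in all 4 libraries was 0.13, so relative to that median every value here is lower by this amount. The 8 genes above 0 were above it under each of the 4 scalings as well, with *Smc1a* as the nearest to 0 at 0.16.

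**Figure D3:**
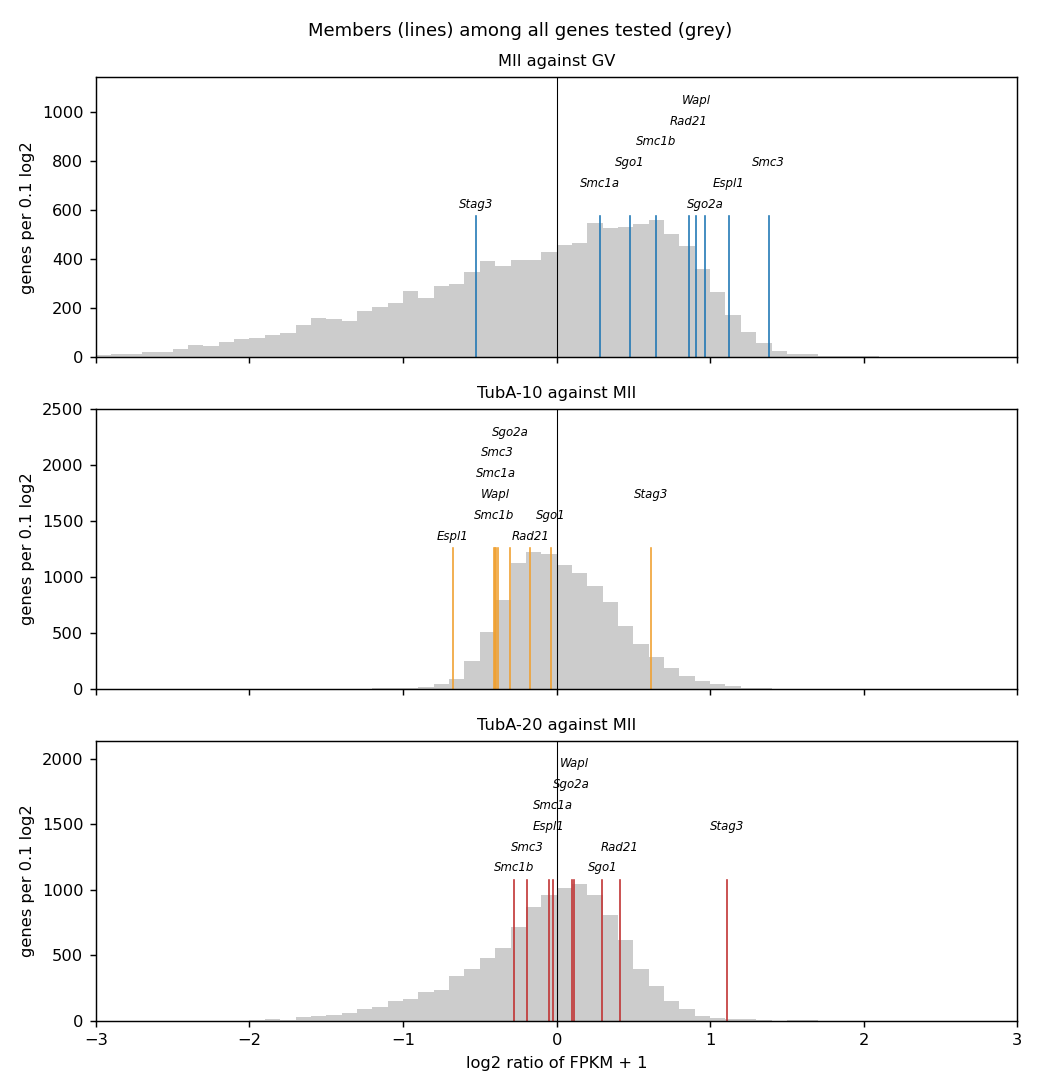
Distribution of log2 ratios of FPKM + 1 over all 10898 genes tested (grey bars, genes per 0.1 log2, shown from −3 to 3) for 3 comparisons, with a coloured line for each of the 9 genes that reached 1 FPKM. In MII against GV the line of *Smc3* is farthest right at 1.38, and in TubA-10 against MII *Espl1* is farthest left at −0.68. The line of *Stag3* in TubA-20 against MII, at 1.11, is not read against the grey bars. Only the TubA libraries took that gene past 1 FPKM.

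For 10 μM TubA against MII, 0 of the 10 genes passed 2-fold, while 1.04% of the genes tested passed it in the higher and 0.257% in the lower direction. The median was −0.34 over the 10 genes, −0.38 without *Rec8* and 0.01 over all genes tested. Values of 8 genes were below MII, from −0.03 for *Sgo1* to −0.68 for *Espl1*, and *Stag3* was above it. Over all genes tested, 48.6% were below MII. *Smc1a*, *Smc1b*, *Smc3* and *Wapl* had nearly the same value, between −0.41 and −0.38. For 7 of the 10 genes TubA-10 lay above GV and below MII, compared with 34.1% of all genes tested. In either direction, TubA-10 lay between GV and MII for the same 7 genes and for 64.5% of all genes tested, so that the share is near the background once direction is left out. With equal *Gapdh*, *Sgo1* left the group and *Smc1a* joined it. The exceptions were *Smc1a*, which as deposited was lowest in TubA-10, *Stag3* and *Rec8*.

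For 20 μM TubA against MII, 1 of the 10 genes was more than 2-fold higher, *Stag3*, and 0 were lower. Of the genes tested, 0.661% were more than 2-fold higher and 4.92% lower. *Stag3* is not read against the former share, as the TubA libraries alone took it past the minimum of 1 FPKM. The median was 0.05 over the 10 genes, 0.10 without *Rec8* and −0.00125 over all genes tested. As deposited, 5 of the genes were above MII and 4 below, and of the 5, *Sgo2a* and *Wapl* turned below it with equal FPKM sums, equal upper quartiles or equal *Gapdh*. *Rad21* at 0.41 and *Sgo1* at 0.30 were higher under all alternatives, and *Smc1b* at −0.28 and *Smc3* at −0.19 were lower under all of them. *Smc1a*, *Sgo2a*, *Espl1* and *Wapl* lay between −0.05 and 0.11.

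Between both doses, the 9 genes above 0 had higher values in TubA-20 than in TubA-10, by 0.13 for *Smc1b* to 0.63 for *Espl1*, and 0 of the 10 passed 2-fold. In this comparison 1.33% of the genes tested were more than 2-fold higher and 11.1% lower, and 50.9% were above 0. The median was 0.39 over the 10 genes, 0.40 without *Rec8* and 0.01 over all genes tested. *Smc1b* and *Smc3* turned just below 0 with equal *Gapdh*, and the other 7 kept their sign under the 4 scalings.

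**Figure D4:**
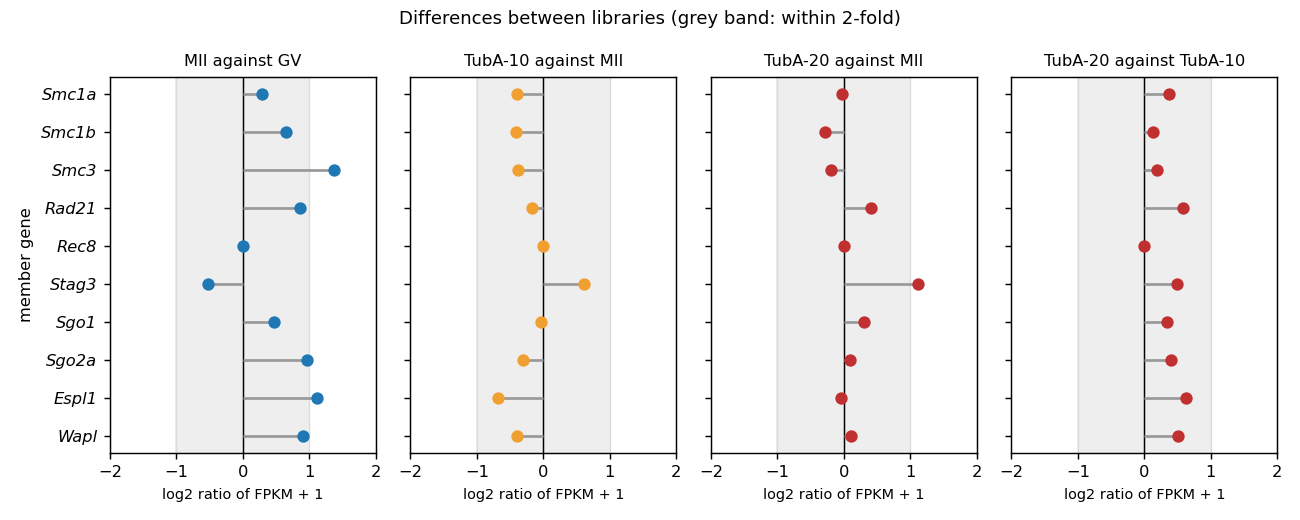
Log2 ratio of FPKM + 1 for the 10 genes (rows) in 4 comparisons (panels), each point a difference between 2 single libraries, with the range within 2-fold in grey. *Smc3* (1.38) and *Espl1* (1.12) leave the band in MII against GV and *Stag3* (1.11) leaves it in TubA-20 against MII.

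Against GV directly, TubA-20 had 5 of the 10 genes more than 2-fold higher and 0 lower. These were *Rad21*, *Smc3*, *Espl1*, *Sgo2a* and *Wapl*, at 1.02 to 1.27. Of the genes tested, 15.3% were more than 2-fold higher and 23.6% lower. The median over the 10 genes was 0.90, or 1.02 without *Rec8*, and 0.07 over all genes tested. With the median difference set to 0, *Rad21* alone remained past 2-fold, and with equal upper quartiles *Wapl* did not pass it. TubA-10 had 0 of the 10 genes past 2-fold against GV, where 1.5% of the genes tested were higher and 11.3% lower by this measure. Its median was 0.44, or 0.45 without *Rec8*. The comparisons with GV share the GV library, and those with MII share the MII library, so their values are given side by side only.

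The wider pathway was taken from a list of 23 other genes, which all reached 1 FPKM. From GV to MII, as deposited, 2 of them rose past 2-fold and 3 fell, against 6.14% higher and 16.8% lower of all genes tested. Both counts were near the background. The median was 0.62. *Stag2* and *Nipbl* rose, and *Cdca5*, *Meikin* and *Ppp2r5d* fell, although these last 3 were just short of 2-fold with equal *Gapdh*, at −0.99 to −0.94. *Nipbl*, whose product loads the ring on DNA, was at 16.2 FPKM in GV and 42.3 in MII, with 30.4 after 10 μM and 46.0 after 20 μM TubA. Its partner in the loader, *Mau2*, was at 10.1, 6.79, 8.10 and 4.68 FPKM in the same order. The rise of *Nipbl* was 1.33 log2, while *Mau2* stood at −0.51 from GV to MII. *Pds5a* and *Pds5b*, whose products help both to keep and to release the ring, stood at 0.93 and 0.72. In TubA-20 against GV, as deposited, 8 of the 23 genes were more than 2-fold higher and 3 lower. Of all genes tested, 15.3% were higher and 23.6% lower. The values ran from −2.07 for *Ppp2r5d* to 1.49 for *Stag2*. In TubA-10 against GV, as deposited, 1 of the 23 was higher and 2 lower, against 1.5% and 11.3% of all genes tested.

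SMC3 is acetylated by ESCO1 and ESCO2, which locks cohesion, and deacetylated by HDAC8. *Esco2* was at 112 FPKM in GV, 159 in MII and, for TubA-10 and TubA-20, 141 and 204. *Esco1* was at 54.5, 92.8, 101 and 115 FPKM, and it passed 2-fold from GV to TubA-20 at 1.06, but not with the median difference set to 0 (0.87). *Hdac8* was at 9.67, 9.97, 9.66 and 7.07 FPKM, so TubA-20 was lowest, at −0.44 against MII.

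Genes that work with shugoshin at centromeres were divided. *Meikin*, a meiosis-specific kinetochore gene needed for protection of centromeric cohesion, fell from 17.2 FPKM in GV to 7.20 in MII, and was at 6.34 in TubA-10 and 5.57 in TubA-20. *Ppp2r5d*, which encodes a B56 regulatory subunit of PP2A, fell from 21.1 to 8.87 FPKM and was at 11.2 in TubA-10 and 4.27 in TubA-20. It was the only gene of the 23 past 2-fold between both doses, at −1.21. Of all genes tested, 11.1% were more than 2-fold lower and 1.33% higher in that comparison. The catalytic subunit gene *Ppp2ca* stood at −0.98 from GV to MII and passed 2-fold against GV in TubA-20 at −1.42 and, but for some scalings, in TubA-10 at −1.02. The scaffold gene *Ppp2r1a* stood at 0.62 in MII and rose past 2-fold in TubA-20 at 1.19, just short of it with the median difference set to 0. *Ppp2r5a*, *Ppp2r5c* and *Ppp2r5e* stood between 0.58 and 0.64 in MII, and *Ppp2r5b* at 0.01. *Bub1*, a kinase that marks centromeres for shugoshin, stood at −0.41.

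In TubA-20 against MII, as deposited, 0 of the 23 genes passed 2-fold, and the median was 0.04. Of all genes tested, 0.661% were higher and 4.92% lower. *Ppp2r5d* was lowest at −0.90 and *Ppp2r1a* highest at 0.57. Under the alternatives *Ppp2r5d* ran from −1.05 to −0.90, so it passed 2-fold with some of them. In TubA-10 against MII, 0 passed 2-fold as well, where 1.04% of all genes tested were higher and 0.257% lower. The median was −0.20, and 17 of the 23 genes were below MII, against 48.6% of all genes tested. For related SMC complexes, the median from GV to MII was 0.64 over 8 condensin genes and 0.69 over 7 genes of the SMC5/6 complex. In TubA-10 against MII these medians were −0.08 and −0.21. Over the 6 genes of the SMC5/6 complex that reached 1 FPKM, the medians were 0.71 and −0.22. No test of the difference from the cohesin genes was possible with single libraries.

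**Figure D5:**
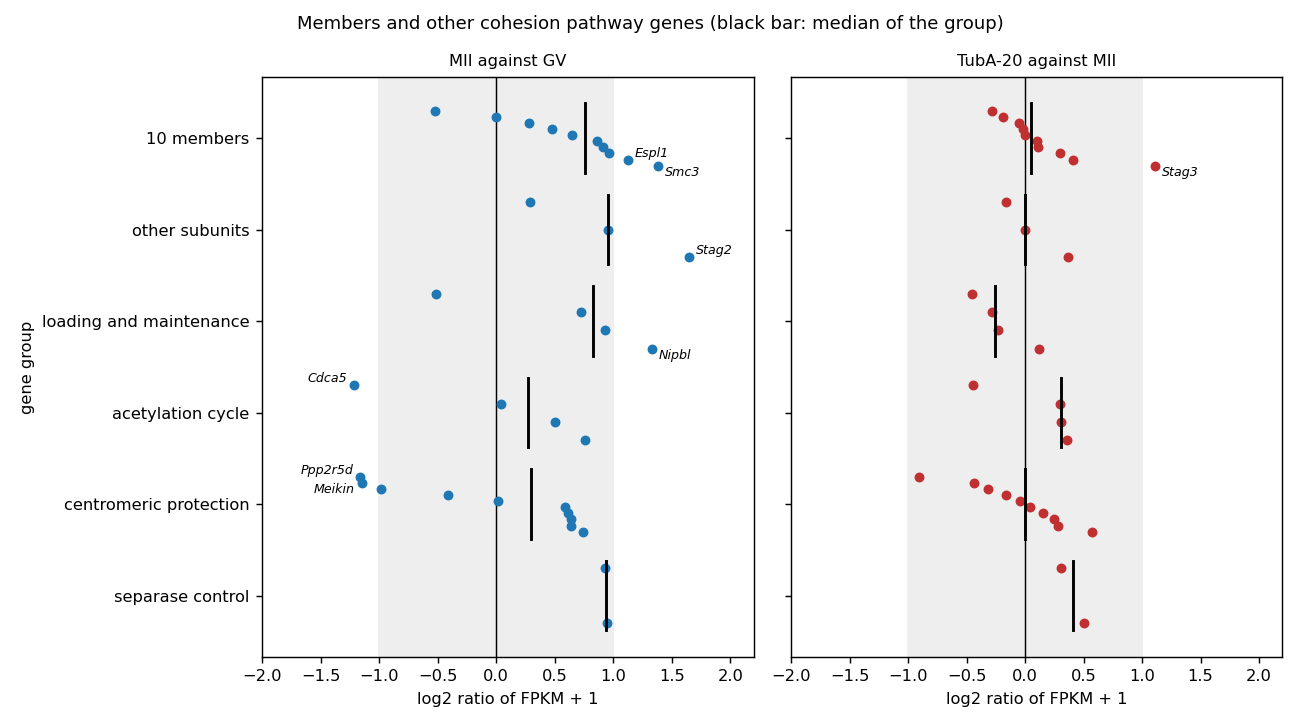
Log2 ratio of FPKM + 1 for the 10 genes and 23 other cohesion genes by group, in MII against GV (left) and TubA-20 against MII (right). Points are genes, black bars are group medians and the grey band is the range within 2-fold. On the left *Stag2*, *Smc3*, *Nipbl* and *Espl1* lie above the band and *Cdca5*, *Ppp2r5d* and *Meikin* below it, and on the right *Stag3* alone lies outside.

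The genes with the most similar pattern were sought among 7896 others with at least 5 FPKM in 1 library, by the root mean square difference of log2(FPKM + 1) centred over the 4 libraries. For *Sgo2a* these were *Diaph1* at 0.013, *Ctnna1* at 0.014 and *Rabgap1l* at 0.016. For *Espl1* these were *Cog3* at 0.032, *Galnt1* at 0.041 and *Tcf20* at 0.041. Each likeness rests on 4 values a gene.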

How the data were processed

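RNA of pooled oocytes was sequenced in 4 libraries, 1 for each condition. The authors deposited FPKM values, made with cufflinks and a strand-specific option on mm10, and the submitters' processing notes also name STAR 2.5.0 and Cuffdiff 2.2.1. Each value had thus been divided by transcript length and by mapped fragments of its library. The identifiers of 21794 of 21959 entries were matched to symbols, and entries sharing a symbol were summed. From these values log2 ratios with a pseudocount of 1 FPKM were computed, and shares of genes past 2-fold were taken over the 10898 genes that reached 1 FPKM anywhere. No further scaling was applied. Pseudocounts of 0.1 and 0.01, 4 scalings, other filters, the highest entry of a symbol and a 1.5-fold threshold were tried. Ratios within a library were added after seeing the data. All 10 genes are named. Others are named when paired with them, past 2-fold, markers or most like *Sgo2a* or *Espl1*. Further values of listed pathway genes are given for completeness. The 10 genes and the lists were chosen with earlier results of these data known. Loci and 3′ ends came from GENCODE M21 on GRCm38, the build of the files. Scripts were tested on simulated data. Python 3.11.15, numpy 2.4.6, pandas 2.3.3 and matplotlib 3.10.9 were used.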

Additional observations from a re-analysis of the deposited data

How the results depend on the processing

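No paired analysis was possible because each condition had 1 library, and no replicate could be left out. Of 420 recomputed log2 differences of the 10 genes, 396 stayed on the same side of 2-fold, 24 crossed it and 0 of those past 2-fold turned sign. The 396 include values that could not cross it, those of *Rec8* and those of the highest entry of a symbol. As no scaling moved the median difference by more than 0.23, a turn of sign from past 2-fold was out of reach. The number of genes past 2-fold in MII against GV, 2 as reported, was 1 with the median difference set to 0, 3 with equal upper quartiles, 4 with equal FPKM sums, 5 with equal *Gapdh* and 6 at 1.5-fold, all higher. With pseudocounts of 0.1 and 0.01 it was 4, of which 3 were higher and 1, *Stag3*, lower. For TubA-10 against MII, 0 became 1 with either smaller pseudocount, through *Stag3*, and 2 at 1.5-fold. For TubA-20 against TubA-10, 0 became 1 at 1.5-fold. For TubA-10 against GV, 0 became 1 with either pseudocount, equal FPKM sums, upper quartiles or *Gapdh*, through *Smc3*, and 3 at 1.5-fold. For TubA-20 against GV, 5 became 1 with the median difference set to 0, 4 with equal upper quartiles, 6 with a pseudocount of 0.01 and 7 at 1.5-fold. The highest entry of a symbol could change no count, as each of the 10 genes had 1 entry. Scaling moved the median difference of the genes with at least 1 FPKM in all 4 libraries by up to 0.23, in TubA-10 against GV with equal *Gapdh*. With no counts, what depth limits was not worked out for any gene, and the total reads in the paper were not used for it.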
